A study of Rattus norvegicus with 8 samples.

Results

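The antioxidant genes driven by Nrf2 were followed in cirrhotic livers of male Wistar rats, through 12 probe sets that cover 8 of the 9 genes of the set. The 9 genes are Nqo1, Hmox1, Slc7a11, Gclc, Gclm, Txnrd1, Srxn1, Prdx1 and Prdx6, and the probe sets taken were those, among 31042 tested, that the platform annotation assigns to a single gene symbol of this set. For Prdx1, a peroxiredoxin, the annotation lists no probe set with that symbol alone, so it was not analysed here. Liver RNA of rats given an antiangiogenic treatment (4 arrays) and of rats given vehicle (4 arrays) was hybridized to Affymetrix Rat2302 arrays, read here as 1 array per rat. All 8 rats had inhaled carbon tetrachloride (CCl4), a hepatotoxin that produces cirrhosis, and had phenobarbital, which induces drug-metabolizing enzymes, in their water at 0.3 g/L, so no array shows the genes without these agents. The antiangiogenic compound, its dose and the age of the rats are given in none of the sources used here. The 4 control rats are untreated according to the series description and received vehicle according to the sample labels, which are followed here.

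Nrf2, encoded by Nfe2l2, is a transcription factor that Keap1 holds in the cytoplasm and marks for degradation, until electrophiles or oxidants modify Keap1 and Nrf2 accumulates in the nucleus. There it pairs with small Maf proteins at antioxidant response elements and induces enzymes that reduce quinones, degrade heme, make glutathione and regenerate thioredoxin and peroxiredoxins, while Bach1 represses part of the same genes. In liver these enzymes are known for protecting hepatocytes against reactive metabolites such as those of CCl4.

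The stretches upstream of 3 measured members are shown because they hold letters of the element, and that of Nqo1 because its mean stood furthest above vehicle. The RefSeq promoter table (GRCr8) matched 7 of the 9 genes, all but Hmox1 and Prdx6, and each stretch runs from 250 bases before to 20 bases after the listed transcript start. Both strands were searched for the element core TGACNNNGC, for its variant TGAGNNNGC, and for TGAGTCA, the nearly palindromic core bound by Maf and AP-1 proteins, which can overlap the other motifs. The last pair of motifs was added after the sequences were seen. Capitals mark every match.
Gclm, chr2:213031885-213032154, plus strand: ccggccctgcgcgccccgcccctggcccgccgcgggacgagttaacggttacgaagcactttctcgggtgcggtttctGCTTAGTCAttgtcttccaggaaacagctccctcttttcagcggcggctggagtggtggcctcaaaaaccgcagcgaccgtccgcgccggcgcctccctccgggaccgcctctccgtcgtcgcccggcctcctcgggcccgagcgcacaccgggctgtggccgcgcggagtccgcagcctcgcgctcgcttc
Txnrd1, chr7:22755885-22756154, minus strand: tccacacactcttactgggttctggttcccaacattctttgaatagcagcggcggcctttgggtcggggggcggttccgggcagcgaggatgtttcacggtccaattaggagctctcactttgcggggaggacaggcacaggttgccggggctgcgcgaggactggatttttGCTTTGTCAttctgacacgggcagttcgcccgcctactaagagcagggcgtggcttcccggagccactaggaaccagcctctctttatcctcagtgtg
Srxn1, chr3:161064562-161064831, plus strand: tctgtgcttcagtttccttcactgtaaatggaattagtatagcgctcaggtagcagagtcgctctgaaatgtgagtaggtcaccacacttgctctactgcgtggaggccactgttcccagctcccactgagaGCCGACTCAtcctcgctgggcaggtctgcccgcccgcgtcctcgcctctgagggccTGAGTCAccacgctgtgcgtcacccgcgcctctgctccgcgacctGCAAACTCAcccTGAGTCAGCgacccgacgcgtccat
Nqo1, chr19:52220248-52220517, minus strand: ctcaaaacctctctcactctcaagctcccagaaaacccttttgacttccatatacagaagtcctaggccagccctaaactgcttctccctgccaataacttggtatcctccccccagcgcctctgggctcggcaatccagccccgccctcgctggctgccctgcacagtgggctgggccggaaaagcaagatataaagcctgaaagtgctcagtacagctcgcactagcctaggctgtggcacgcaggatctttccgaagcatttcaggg
The core TGACNNNGC was found on the opposite strand in Gclm, beginning 172 bases before the start, and in the stretch of the second listed start of Txnrd1, beginning 78 bases before it. Srxn1 held 3 matches to TGAGNNNGC, at 118, 17 and 5 bases before the start, and the last of them overlaps the second of its 2 matches to TGAGTCA. Prdx1, which was not measured and is not shown, held the core once and TGAGTCA at 2 places, and no motif was found in the stretches of Nqo1, Gclc, Slc7a11 or the first listed start of Txnrd1. Among all 33469 stretches of this length in the table, 10.9% held TGACNNNGC, 15.4% held TGAGNNNGC and 4.31% held TGAGTCA. A match is a description of the letters and does not show that the element was bound in these livers. The search covered only these stretches, so a gene without a match here may hold the element elsewhere.

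Of the 8 measured genes, 6 had a higher mean in antiangiogenic than in vehicle livers, and none passed the test. Nqo1, Gclm, Gclc and Prdx6 had the largest positive differences, between 0.35 and 0.80 on the log2 scale, whereas Srxn1 and Slc7a11 had lower means with intervals that reach far to both sides of 0. The test was limma with Benjamini-Hochberg adjustment over all 31042 probe sets at an adjusted p of 0.05, and it called 0 of the 12 member probe sets and 0 of all probe sets (0%). The smallest adjusted p of any probe set was 0.979. At an unadjusted p of 0.05, Nqo1 and Prdx6 were higher and 0 members were lower, against 1.89% of all probe sets higher and 2.04% lower. Nqo1 had an unadjusted limma p of 0.0599 with the spike-in groups described below as a block and 0.0626 with the replicate number as a block. Leaving out antiangiogenic 1, antiangiogenic 2, vehicle 1 or vehicle 3 left both genes above that mark, with unadjusted limma p of 0.0736 to 0.0945 for Nqo1 and 0.0524 to 0.0698 for Prdx6. The groups overlapped at all 12 member probe sets, while 1.09% of all probe sets were higher and 0.58% lower without overlap. Taking 1 probe set per gene, the brightest, the median difference of the 8 genes was 0.28, against 0.01 over 14217 genes, of which 51.6% had a higher mean in antiangiogenic livers. The set was chosen with earlier results of these data known, so its count and median are only a description. Without antiangiogenic 2 the median of the 8 genes was 0.08.

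All differences below are antiangiogenic minus vehicle in log2 intensity, values after ± are SDs over the 4 arrays of a group, and intervals are 95% intervals from limma. The sample titles number the arrays as replicates, which is read here as 1 rat per array, and the number of arrays limits the precision. Median log2 values of the arrays lay between 5.16 and 5.30, with lower quartiles between 3.74 and 3.91. Hepatocyte markers such as Alb averaged between 12.88 and 13.12 on antiangiogenic arrays and between 12.88 and 13.13 on vehicle arrays, far above those medians. Antiangiogenic 3 and vehicle 4 were nearly identical, and whether they come from different rats was not tested. They showed a gap of over 2-fold at 0 of the 9235 probe sets averaging above 7, where each of the 27 other array pairs showed it at 245 to 1627. At the member probe sets these arrays differed by at most 0.28, against at least 1.14 for the largest gap in any other pair. Both were kept under their labels, and the differences of the members, the list counts and medians and the main single genes are also given without them, on 6 arrays.

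**Figure D1:**
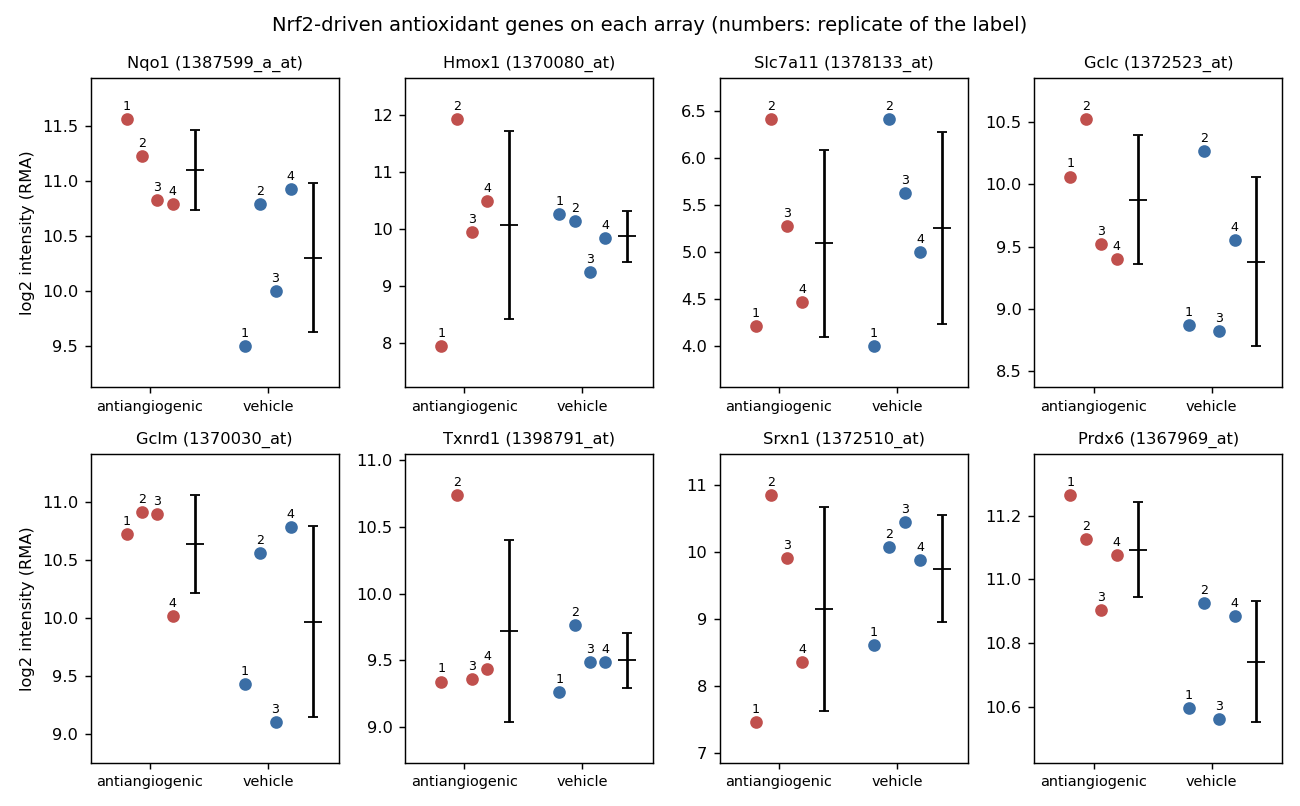
Log2 intensity (RMA) of the brightest probe set of each of the 8 measured genes, with a panel per gene, antiangiogenic arrays left (red) and vehicle arrays right (blue), numbered by replicate; the black bar is the mean with its SD over 4 arrays. The groups overlap in every panel, and Hmox1 spans 3.98 log2 units within the antiangiogenic group.

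Nqo1 (1387599_a_at) encodes the quinone reductase that converts quinones into hydroquinones without a radical step and is a widely used readout of Nrf2 activity. It stood at 11.56, 11.23, 10.83 and 10.79 on antiangiogenic arrays 1 to 4, against 9.50, 10.79, 9.999 and 10.93 on vehicle arrays 1 to 4. Vehicle 1 and 3 lay below every other array, and vehicle 4 lay above antiangiogenic 3 and 4. The means were 11.10 ± 0.36 in antiangiogenic and 10.30 ± 0.67 in vehicle livers, a 1.74-fold higher level (difference 0.80, SE 0.32, interval 0.07 to 1.53, limma adjusted p = 0.979). Without vehicle 1 the difference was 0.53. On 6 arrays it was 1.10 (0.26 to 1.94, limma adjusted p = 0.706) and the groups no longer overlapped, as for 5.88% of all probe sets in the higher direction, but antiangiogenic 4 and vehicle 2 then lay side by side at 10.79.

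Hmox1 (1370080_at) encodes heme oxygenase 1, which opens heme into biliverdin, iron and carbon monoxide and is high in macrophages that take up red cells. It stood at 7.95, 11.92, 9.95 and 10.49 on antiangiogenic arrays 1 to 4, against 10.26, 10.13, 9.25 and 9.84 on vehicle arrays 1 to 4. The lowest and the highest array were both antiangiogenic, and the vehicle arrays lay between them within about 1 log2 unit. The means were 10.08 ± 1.65 in antiangiogenic and 9.87 ± 0.45 in vehicle livers (difference 0.20, interval -1.39 to 1.79, limma adjusted p = 0.996). The direction depended on single arrays, with a difference of 0.91 without antiangiogenic 1, -0.41 without antiangiogenic 2 and -0.003 without vehicle 3. Antiangiogenic 1 also had the lowest mean of 13 macrophage markers, 7.80, while antiangiogenic 2 was at 8.80, within the range of 8.75 to 9.45 on vehicle arrays, and antiangiogenic 4 was highest at 9.46. The part of macrophages in the Hmox1 values was not tested, and in whole tissue fewer cells of a type and less RNA per cell cannot be told apart.

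Slc7a11 (1378133_at) encodes the exchanger that imports cystine, the source of cysteine for glutathione. Its values were 4.21, 6.41, 5.27 and 4.46 on antiangiogenic arrays 1 to 4, against 3.99, 6.41, 5.63 and 4.995 on vehicle arrays 1 to 4. It was a dim probe set, below the array median on 4 arrays and close to it on antiangiogenic 3, and the highest array of each group stood at 6.41. The difference was -0.17 (interval -1.499 to 1.16, limma adjusted p = 0.996), and it changed sign without antiangiogenic 1 (0.13), antiangiogenic 4 (0.04) or vehicle 2 (0.22).

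Gclc and Gclm encode the catalytic and the modifier subunit of glutamate-cysteine ligase, the rate-limiting enzyme of glutathione synthesis. Gclc (1372523_at) stood at 10.06, 10.52, 9.52 and 9.40 on antiangiogenic arrays 1 to 4, against 8.87, 10.27, 8.82 and 9.55 on vehicle arrays 1 to 4. Its second probe set (1370688_at) gave 9.36, 9.80, 8.85 and 8.56 on antiangiogenic arrays, against 8.15, 9.39, 8.13 and 8.81 on vehicle arrays. In both, vehicle 1 and 3 were the lowest arrays and antiangiogenic 2 the highest. The difference was 0.50 (-0.31 to 1.31) at the first probe set and 0.52 (-0.26 to 1.30) at the second, each with a limma adjusted p of 0.979. It was 0.28 without antiangiogenic 2, 0.33 without vehicle 1, 0.31 without vehicle 3 and 0.79 without vehicle 2 at the first.

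Gclm (1370030_at) stood at 10.72, 10.91, 10.90 and 10.02 on antiangiogenic arrays 1 to 4, against 9.44, 10.56, 9.11 and 10.78 on vehicle arrays 1 to 4. Here too vehicle 1 and 3 were lowest, and vehicle 2 and 4 lay among the antiangiogenic arrays. The means were 10.64 ± 0.42 in antiangiogenic and 9.97 ± 0.82 in vehicle livers, 1.59-fold higher (difference 0.67, interval -0.21 to 1.54, limma adjusted p = 0.979), and the difference was 0.38 without vehicle 3. On 6 arrays the differences were 0.67 for Gclc (1372523_at) and 0.85 for Gclm, with overlap in both.

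Txnrd1 encodes the cytosolic selenoenzyme that reduces thioredoxin with NADPH. Its brighter probe set (1398791_at) stood at 9.34, 10.74, 9.36 and 9.44 on antiangiogenic arrays 1 to 4, against 9.27, 9.76, 9.49 and 9.49 on vehicle arrays 1 to 4. Only antiangiogenic 2 stood apart, and the other probe set (1386958_at) showed the same, with 9.63 on antiangiogenic 2, 7.97 to 8.15 on the other antiangiogenic arrays and 8.04 to 8.41 on vehicle arrays. The differences were 0.22 (-0.47 to 0.90) and 0.28 (-0.49 to 1.04), and the first was -0.12 without antiangiogenic 2.

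Srxn1 encodes sulfiredoxin, which restores peroxiredoxins whose cysteine has been over-oxidized. Its brightest probe set (1372510_at) stood at 7.47, 10.85, 9.91 and 8.36 on antiangiogenic arrays 1 to 4, against 8.62, 10.08, 10.44 and 9.88 on vehicle arrays 1 to 4. The lowest and highest arrays were both antiangiogenic, as for Hmox1. The second probe set (1384331_at) ran from 5.53 on antiangiogenic 1 to 8.24 on antiangiogenic 2, around a vehicle range of 6.10 to 7.52. Another, dim probe set (1381067_at) lay between 3.26 and 3.68 on all arrays, below the lower quartile of each, and is no measure of the gene's course. The means of the brightest were 9.15 ± 1.52 in antiangiogenic and 9.75 ± 0.79 in vehicle livers (difference -0.61, interval -2.20 to 0.99, limma adjusted p = 0.979), with -0.05 without antiangiogenic 1 and -1.17 without antiangiogenic 2. The second probe set differed by -0.29 and the dim one by -0.13.

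Prdx6 (1367969_at) encodes the peroxiredoxin with a single active cysteine, which reduces phospholipid hydroperoxides. It stood at 11.26, 11.13, 10.90 and 11.08 on antiangiogenic arrays 1 to 4, against 10.60, 10.93, 10.56 and 10.89 on vehicle arrays 1 to 4. It varied least among the 8 genes, over 0.70 log2 units, and the groups overlapped only because vehicle 2 lay above antiangiogenic 3. The means were 11.09 ± 0.15 in antiangiogenic and 10.74 ± 0.19 in vehicle livers, 1.28-fold higher (difference 0.35, SE 0.13, interval 0.06 to 0.65, limma adjusted p = 0.979). On 6 arrays the difference was 0.46 (0.12 to 0.81, limma adjusted p = 0.693) without overlap, as for 5.88% of all probe sets in the higher direction.

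**Figure D2:**
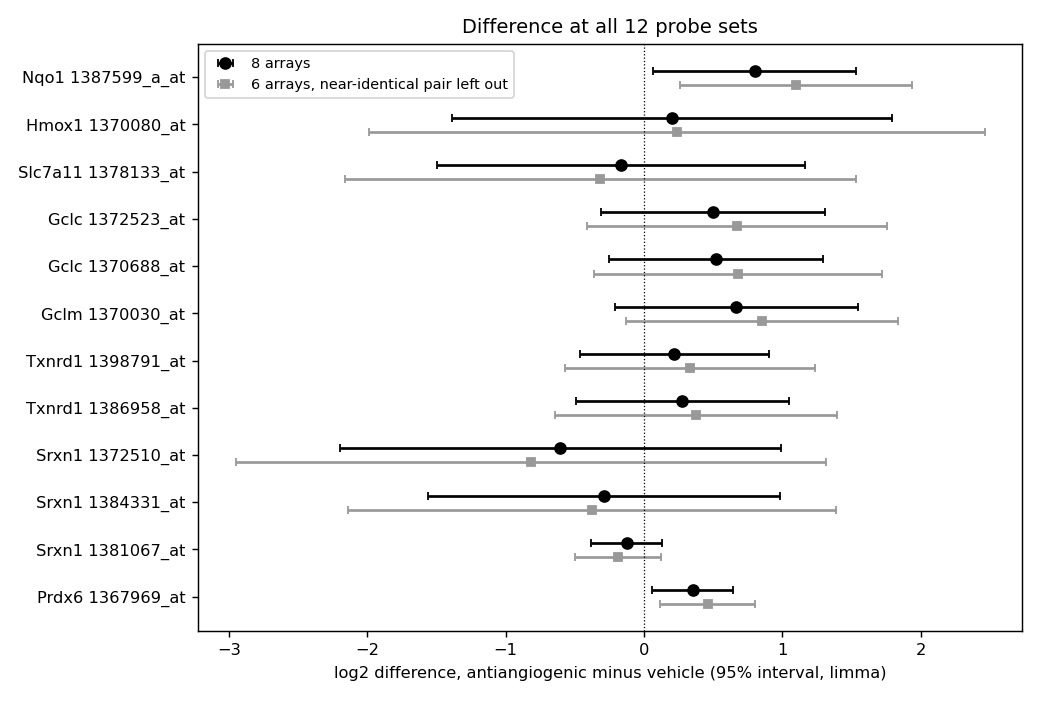
Log2 difference, antiangiogenic minus vehicle, with its 95% interval at each of the 12 probe sets, on 8 arrays (black circles) and on the 6 arrays left without antiangiogenic 3 and vehicle 4 (grey squares). The intervals of Nqo1 and Prdx6 lie above 0 on both, and those of the other probe sets include 0.

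On 6 arrays every gene kept its direction, and 6 of 8 genes were again higher, with a median difference of 0.40. Of the genes not yet given on 6 arrays, Hmox1 differed by 0.24 (interval -1.99 to 2.47), Txnrd1 (1398791_at) by 0.33 (-0.57 to 1.24), Srxn1 (1372510_at) by -0.82 (-2.95 to 1.32) and Slc7a11 by -0.32 (-2.16 to 1.53). Each of these 4 intervals still reached to both sides of 0, and the 6-array fit called 0 member probe sets.

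The labels name no batch. By cuts set on the spike-in controls BioB and BioC, BioC more than 1 above BioB for the first group and BioB above 8.5 for the third, the arrays fell into 3 groups, with antiangiogenic 1 and vehicle 1 in the first, antiangiogenic 3 and vehicle 4, the near-identical arrays, in the third, and the other 4 in the second. Nqo1 differed by 2.06 in the first and 0.62 in the second, and by -0.09 in the third. In the same order of groups, Gclm differed by 1.29, 0.63 and 0.12, Gclc (1372523_at) by 1.19, 0.42 and -0.03, and Prdx6 by 0.67, 0.36 and 0.02. These 4 genes, already those with the largest positive differences, were higher in antiangiogenic livers in the first and second groups, which is no separate support. The first group sets single arrays against each other. In the second, antiangiogenic 4 lay below vehicle 2 for Gclc (9.40 against 10.27) and Gclm (10.02 against 10.56). It was level with vehicle 2 for Nqo1 (10.79 each) and above it for Prdx6 (11.08 against 10.93). Srxn1 (1372510_at) differed by -1.15, -0.65 and 0.03. Hmox1 went both ways, with -2.31, 1.51 and 0.10 in groups 1, 2 and 3, and so did Slc7a11, with 0.21, -0.58 and 0.28. Txnrd1 (1398791_at) differed by 0.08, 0.46 and -0.12 in the 3 groups.

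The members did not follow a single pattern over the arrays. Likeness was measured as the root mean square difference of log2 values after each gene was centred on its mean over the 8 arrays, which is small for genes that vary alike and by a like amount. Among 28 pairs of member genes it was smallest for Nqo1 and Gclm (0.35), Nqo1 and Gclc (0.37) and Gclc and Gclm (0.39), and largest for Nqo1 and Srxn1 (1.31) and Nqo1 and Hmox1 (1.27). Antiangiogenic 1 shows the contrast most plainly, since it was the highest of the 8 arrays for Nqo1 and Prdx6 and the lowest for Hmox1 and Srxn1. Antiangiogenic 2 was the highest array for Hmox1, Gclc, Gclm, Txnrd1 and Srxn1, and level with vehicle 2 at the top for Slc7a11. These distances describe 8 arrays, of which 2 are near-copies.

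**Figure D3:**
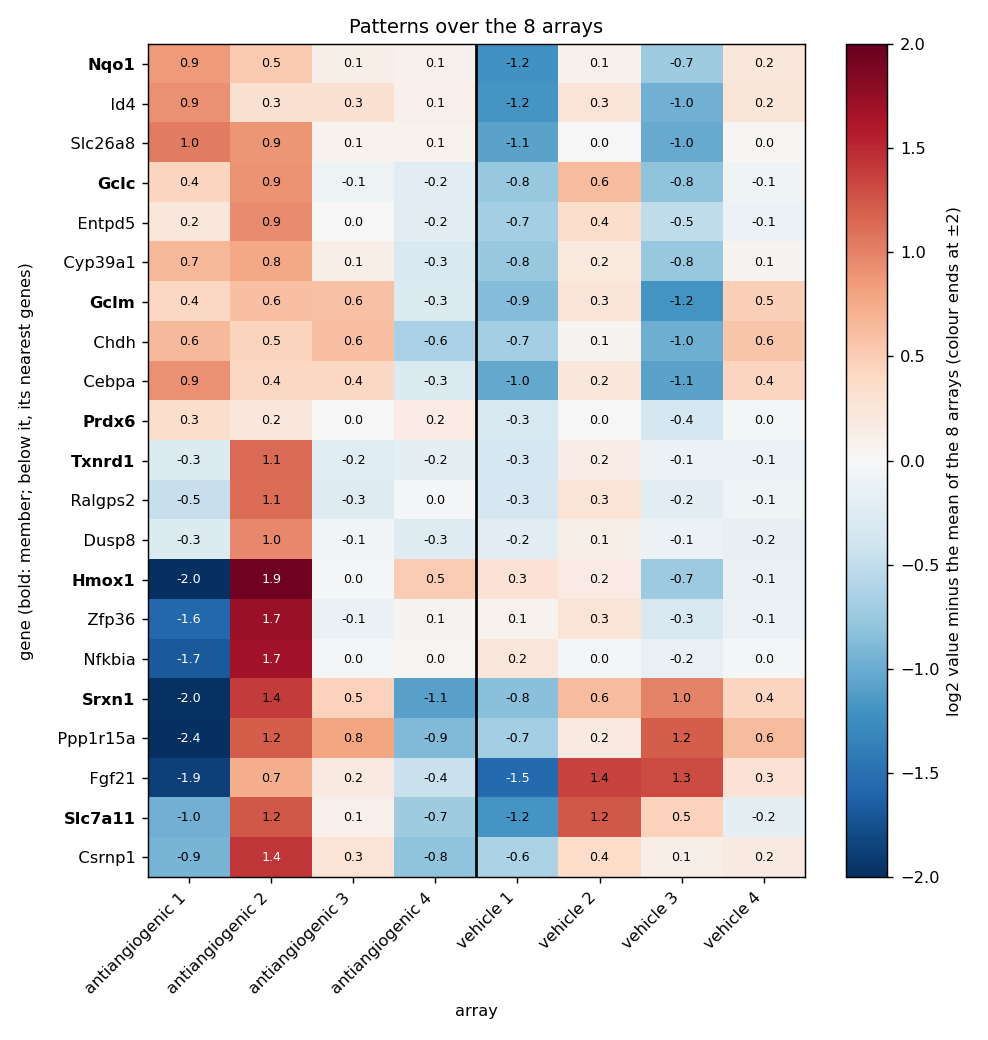
Log2 value minus the mean of the 8 arrays for the 8 members (bold) and, below each member that spans at least 1 log2 unit, its nearest genes (2 each, and 1 for Slc7a11), with antiangiogenic arrays left of the line and vehicle arrays right of it. Nqo1, Gclc and Gclm and their nearest genes are low on vehicle 1 and 3, whereas Hmox1 and Srxn1 and theirs are low on antiangiogenic 1 and high on antiangiogenic 2.

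The 2 nearest of 14217 genes were taken for each member that spanned at least 1 log2 unit, which leaves out Prdx6. For Nqo1 they were Id4, an inhibitor of DNA-binding transcription factors, at a distance of 0.15, and Slc26a8, an anion transporter, at 0.20. For Gclc they were Entpd5, a nucleotidase of the endoplasmic reticulum that also stands in the list of other Nrf2 targets, at 0.17, and Cyp39a1, an oxysterol hydroxylase of bile acid synthesis, at 0.21. For Gclm they were Chdh, the choline dehydrogenase, and Cebpa, a transcription factor of hepatocytes, both at 0.21. For Hmox1 they were Zfp36, which promotes decay of cytokine messenger RNAs, at 0.29, and Nfkbia, the inhibitor of NF-kappaB, at 0.31. For Srxn1 they were Ppp1r15a, a phosphatase subunit of the stress response, at 0.30, and Fgf21, a hormone of the stressed or fasting liver, at 0.51. Slc7a11 had Csrnp1, a nuclear protein, at 0.41, and Txnrd1 had Ralgps2 at 0.10 and Dusp8, a phosphatase of MAP kinases, at 0.11. Dusp8 was dim, at 4.24 to 4.63 on all arrays but antiangiogenic 2 (5.47), and Ralgps2 lay at 5.04 to 5.77 on all but antiangiogenic 2 (6.62). Like Txnrd1 both varied little apart from that array, so their small distances rest largely on it. Zfp36 stood at 8.03, 11.33, 9.48 and 9.66 on antiangiogenic arrays 1 to 4, against 9.68, 9.88, 9.29 and 9.49 on vehicle arrays 1 to 4, so that, as with Hmox1, the antiangiogenic group held both ends. Ppp1r15a stood at 6.01, 9.67, 9.24 and 7.58 on antiangiogenic arrays 1 to 4, against 7.79, 8.64, 9.67 and 9.10 on vehicle arrays 1 to 4.

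The regulators of the pathway went both ways. Of 10 genes 7 had a higher mean in antiangiogenic livers, with a median difference of 0.05 (0.04 on 6 arrays), and 0 passed the test or an unadjusted p of 0.05. Nfe2l2 (1367826_at), which encodes Nrf2, averaged 10.36 ± 0.23 in antiangiogenic and 10.22 ± 0.39 in vehicle livers (difference 0.14, interval -0.33 to 0.60). It stood at 10.63 on antiangiogenic 1 and 10.07 on antiangiogenic 2, the reverse order of Hmox1 and Srxn1. Keap1 (1370066_at), its inhibitor, averaged 7.98 ± 0.30 in antiangiogenic and 7.76 ± 0.16 in vehicle livers (difference 0.22, and 0.39 at its second probe set). Bach1 (1377699_at), the repressor, averaged 5.01 ± 0.42 in antiangiogenic and 4.80 ± 0.23 in vehicle livers. It was a dim probe set, below the array median on antiangiogenic 1 and 4 and on every vehicle array. Nfe2l1 (1373278_at), a relative of Nrf2, differed by 0.27, and the small Maf gene Mafk (1372211_at) by -0.31. Maff (1380229_at), another small Maf gene, was picked after its values were seen. It stood at 3.80, 8.01, 5.95 and 4.54 on antiangiogenic arrays 1 to 4, against 5.83, 7.63, 6.02 and 5.66 on vehicle arrays 1 to 4, with both ends in the antiangiogenic group, as for Hmox1 and Srxn1. The Maff value on antiangiogenic 1 lay below the lower quartile of that array (3.84), so that this end is near the floor. The difference of Maff, -0.71 (interval -2.63 to 1.20), was the largest of the list in size, and it was -1.04 on 6 arrays.

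Among 31 other genes known as Nrf2 targets, 27 were measured, and 21 of them had a higher mean in antiangiogenic livers, with a median difference of 0.23 against 0.01 over all genes. The list was chosen with earlier results of these data known, so this count and median of its genes are only a description. None passed the test (0 of 27), and 2 were higher at an unadjusted p of 0.05, against 1.95% of all genes. Aox1 (1387376_at), the aldehyde oxidase, stood at 12.53, 12.51, 12.09 and 11.98 on antiangiogenic arrays 1 to 4, against 10.94, 11.68, 10.41 and 12.12 on vehicle arrays 1 to 4. Vehicle 1 and 3 were again the lowest arrays, and the difference was 0.99 (interval 0.22 to 1.77, limma adjusted p = 0.979), or 1.33 on 6 arrays. Ugdh (1367938_at), which makes UDP-glucuronic acid, differed by 0.44 (0.01 to 0.87), Fech (1390388_at), the last enzyme of heme synthesis, by 0.34 (-0.02 to 0.71), and Gsr (1369061_at), the glutathione reductase, by 0.41 (-0.05 to 0.87). Osgin1 (1370336_at), picked after its values were seen for having the largest difference of the list, stood at 11.63, 10.42, 10.47 and 9.83 on antiangiogenic arrays 1 to 4, against 7.18, 10.54, 9.11 and 10.45 on vehicle arrays 1 to 4 (difference 1.27, interval -0.35 to 2.89). On 6 arrays 20 of the 27 genes were higher, with a median of 0.32.

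Enzymes of peroxide and glutathione handling that are not counted among the classical targets lay closer to 0. Of 20 genes 14 had a higher mean in antiangiogenic livers, with a median difference of 0.11, and 0 passed the test. Msra (1387531_at), which repairs oxidized methionine, differed by 0.55 (interval 0.10 to 1.003), and the mitochondrial and peroxisomal peroxiredoxin Prdx5 (1367677_at) by 0.39 (-0.01 to 0.80). Gpx4 (1386871_at), the lipid hydroperoxide peroxidase, differed by 0.27 (-0.04 to 0.58). Ggt1 (1368374_a_at), which cleaves extracellular glutathione, averaged 5.72 ± 0.33 in antiangiogenic and 6.49 ± 0.62 in vehicle livers (difference -0.77, interval -1.45 to -0.09, limma adjusted p = 0.979). On 6 arrays Msra differed by 0.71 and Ggt1 by -1.06, and the median of the list was 0.15.

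Of 9 measured genes of heme and iron handling, 6 had a higher mean in antiangiogenic livers, with a median difference of 0.07, and 0 passed the test. Hmox2 (1367903_at), the constitutive heme oxygenase, averaged 9.42 ± 0.38 in antiangiogenic and 8.98 ± 0.21 in vehicle livers (difference 0.44, interval -0.002 to 0.89), and the biliverdin reductase gene Blvrb (1392539_at) differed by 0.47 (-0.20 to 1.15). The iron exporter gene Slc40a1 (1390412_at) differed by 0.20 (-0.21 to 0.61). Alas2 (1367985_at), the erythroid enzyme of heme synthesis, differed by -0.61 (-1.14 to -0.09), and on 6 arrays by -0.92 (-1.19 to -0.66, limma adjusted p = 0.149). On 6 arrays the count of higher genes was 5 of 9 here, 14 of 20 among the peroxide and glutathione enzymes and 7 of 10 among the regulators.

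Cell type markers also varied between the arrays. Hepatocyte markers were evenly divided, with 6 of 12 higher in antiangiogenic livers and a median difference of 0.003. Several of them are among the brightest probe sets, such as Alb (1367555_at), which averaged 14.82 in antiangiogenic and 14.84 in vehicle livers. Some genes of the list, picked after their values were seen, had larger differences, in both directions. Asgr1 (1370149_at), an asialoglycoprotein receptor subunit, differed by 0.57 (interval 0.03 to 1.12), and Hnf4a, a transcription factor of hepatocytes, by 0.64 (0.03 to 1.25) at 1369289_at and 0.78 (0.06 to 1.5003) at 1382496_at, but by 0.15 (-0.23 to 0.54) at its brightest probe set. Vehicle 1 and 3 were the lowest arrays for Asgr1 and for both of the dimmer Hnf4a probe sets, as for Nqo1. At Hnf4a, however, vehicle 1 was nearly tied with other arrays. It stood at 7.727 against 7.733 on vehicle 4 at 1369289_at, and at 7.36 against 7.44 on vehicle 2 at 1382496_at. Tat (1369790_at) differed by -0.30 (-1.29 to 0.68) and Apoa1 (1368335_at) by -0.64 (-1.38 to 0.10). Apoa1 was highest on vehicle 1 and antiangiogenic 4 (13.76 each) and lowest on antiangiogenic 1 (12.23) and 2 (12.38). The mean of the hepatocyte list was 13.09 on vehicle 1 and 12.88 on vehicle 3. Endothelial markers were lower at 11 of 11 measured genes (median -0.78) and stellate and myofibroblast markers at 10 of 12 (median -0.74), and 0 of either list passed the test. At an unadjusted p of 0.05, 5 of the 11 endothelial and 2 of the 12 stellate and myofibroblast genes were lower, against 2.8% of all genes, and 1 endothelial gene, Fcgr2b, was lower without overlap, against 0.626% of all genes. On 6 arrays the medians were -1.07 for the endothelial, -1.01 for the stellate and myofibroblast, -0.45 for the macrophage and for the bile duct and 0.01 for the hepatocyte markers. Macrophage markers were lower at 10 of 13 and bile duct markers at 8 of 9, each with a median of -0.34, which in both is the value of Spp1, a gene of both lists. The mean of the stellate and myofibroblast list was 7.41 to 8.64 on antiangiogenic and 7.99 to 9.01 on vehicle arrays. It was highest on vehicle 1 and 3 (9.01 each), the arrays on which Nqo1, Gclc, Gclm and Prdx6 were lowest. The mean of the bile duct list was 5.84 to 7.39 on antiangiogenic and 6.14 to 6.98 on vehicle arrays, and that of the endothelial list 7.17 to 7.32 on antiangiogenic and 7.21 to 8.26 on vehicle arrays. The part of these cell types in the values of the antioxidant genes was not tested.

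**Figure D4:**
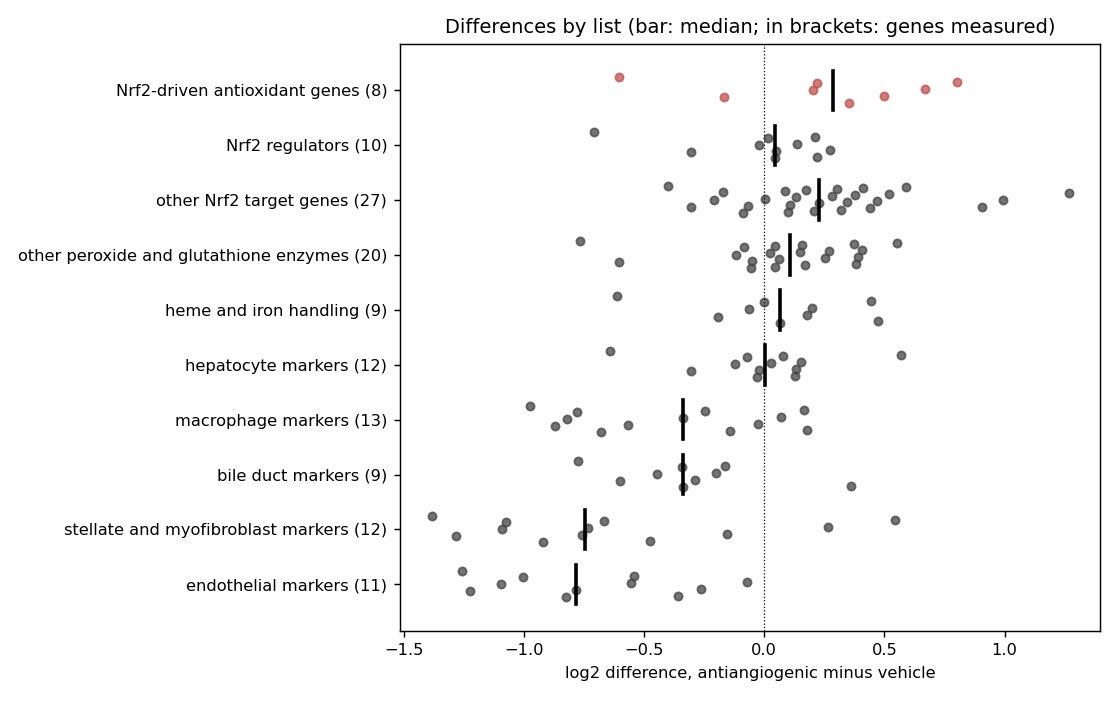
Log2 difference, antiangiogenic minus vehicle, of single genes (points, 1 probe set per gene) in the antioxidant set (red), the pathway lists and the marker lists, with a bar at each median and the number of genes measured in brackets. The medians of the antioxidant set (0.28) and of the other Nrf2 target genes (0.23) lie above those of the regulators (0.05) and hepatocyte markers (0.003), and those of the endothelial (-0.78) and stellate (-0.74) markers lie furthest below 0. The set and the lists were chosen with earlier results of these data known.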

How the data were processed

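Per the labels' protocols, total RNA of frozen liver was extracted with Trizol, cleaned on RNeasy columns, copied into cDNA from an oligo(dT) primer and transcribed into biotinylated cRNA. Per the submitters' processing notes, the authors used affy and RMA, a method that subtracts background, normalizes by quantiles and combines the probes of a set. Their versions and settings are not stated in any source used here. The deposited values are log2 intensities of 31099 probe sets, used as deposited. RMA draws small differences of dim probe sets towards 0.

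The 57 control probe sets were left out, leaving 31042, and 0 array columns were unused. In the platform annotation 20826 of these had 1 gene symbol, 436 several and 9780 none listed. Arrays were grouped by sample title. The test was lmFit and eBayes of limma 3.58.1 in R 4.3.3, on 8 arrays with 6 residual degrees of freedom before moderation, no covariates, and Benjamini-Hochberg adjustment over all probe sets. The procedure was tested on simulated data. Each gene of a list is represented by its brightest probe set with 1 symbol. By rule the text names every member, Nfe2l2, Keap1, Bach1, up to 4 genes with the smallest unadjusted p in each pathway list, and the 2 nearest genes in pattern, of which 1 for Slc7a11 is not reported here. Spike-in groups are cuts on control values (BioC more than 1 above BioB, or BioB above 8.5), not batches that a label or header names. The members, lists and rules were chosen with earlier results of these data known. Alternatives were quantile normalization, median centring, a filter at a mean of 6, trend and robust variances, array weights, replicate and spike-in blocks, the mean of a gene's probe sets, and leaving arrays out.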

Additional observations from a re-analysis of the deposited data

Results flagged for a closer look

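Among the 24 groups of 4 arrays given by the 12 member probe sets, 3 held an array whose gap to the nearest other array took up more of the group's range than Dixon's 95% critical value for 4 samples, which chance exceeds in about 1 of 20 groups. Antiangiogenic 2 was such an array for Txnrd1, with a share of 0.932 at 1398791_at (10.74, against 9.34 to 9.44 on the other antiangiogenic arrays) and 0.892 at 1386958_at, and the 2 probe sets measure the same gene. Vehicle 2 was such an array for the dim probe set 1381067_at of Srxn1, with a share of 0.885 over a range under 0.2 log2 units (3.51 to 3.68).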

How the results depend on the processing

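In limma 0 member probe sets were called under any alternative, and the median difference of the member genes, 0.28 as reported, stayed between 0.08 and 0.39 when single arrays were left out and was 0.40 without both near-identical arrays. The count over all probe sets, 0 as reported, was 3 without both near-identical arrays and between 0 and 11 when single arrays were left out, with 11 without vehicle 4. Nqo1, Gclc, Gclm and Prdx6 kept a positive and Srxn1 a negative difference under all 17 alternatives. With single arrays left out, Hmox1 lay between -0.41 and 0.91, turning without antiangiogenic 2 (-0.41) or vehicle 3 (-0.003), Txnrd1 lay between -0.12 and 0.34, turning without antiangiogenic 2, and Slc7a11 lay between -0.61 and 0.22, turning without antiangiogenic 1 (0.13), antiangiogenic 4 (0.04) or vehicle 2 (0.22). The cause was not tested. Slc7a11 has no value under the filter at a mean of 6. With the replicate number as a block 0 probe sets were called, as without it. Between arrays with the same number, deviations from the group means correlated between -0.62 and 0.04. Of the antiangiogenic arrays, 1 of 4 correlated best with the vehicle array of its own number. The brightness of Slc7a11, of the dim Srxn1 probe set, and of Bach1 and Alas2 in the other lists limits what they can show.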

Other observations

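Vehicle 4, which is nearly identical to antiangiogenic 3, lay apart from the other vehicle arrays in some gene groups of other cells. Alas2, a dim probe set of the erythroid enzyme of heme synthesis, stood at 4.67, 4.69, 4.90 and 4.70 on antiangiogenic arrays 1 to 4, against 5.70, 5.58, 5.55 and 4.59 on vehicle arrays 1 to 4. The mean of the endothelial markers was 7.21, 7.32, 7.17 and 7.27 on antiangiogenic arrays 1 to 4, against 8.25, 8.15, 8.26 and 7.21 on vehicle arrays 1 to 4. For Nqo1 and Gclm, vehicle 2 and 4 both lay near the antiangiogenic arrays, so that the vehicle arrays divided differently there. The cause of the division at Nqo1 and Gclm was not tested.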
